A study of Mus musculus with 2 samples.

Results

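The 10 genes described here, of 31053 in the gene tables, encode the desaturases Scd1, Scd2, Fads1 and Fads2, the elongases Elovl1, Elovl5, Elovl6 and Elovl7, the fatty acid synthase Fasn, and Srebf1, which encodes a transcription factor of lipid synthesis. They were taken by gene symbol, and each symbol had 1 row. They were measured by single-cell RNA sequencing of mouse colon cells in 2 libraries, and a level is the number of unique molecular identifiers (UMIs, each standing for 1 captured RNA molecule) summed over the cells of a class. The question here was which cells of the sorted colon carry each enzyme and how its level in cells that lack CerS2 compares with that in cells that have it.

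The cells came from bone marrow chimeras. Donors of the KO library carried CD45.2 and lacked the IL-10 receptor (Il10rb), and donors of the DKO library lacked both the IL-10 receptor and CerS2, the ceramide synthase that makes very long chain ceramides. All recipients were CD45.1 mice, so the deletions were in blood-derived cells, and the loss of the receptor was shared by both libraries. By the study's methods, cells were sorted as positive for CD45, CD11b, CD11c and CD64, a gate chosen to keep out B cells, T cells and neutrophils. The study's results text names CD45 alone for this sort. There was 1 library per genotype and no library of intact donors. How many mice each library pooled is not given in the sources used here. Genotype, mouse, sort and library cannot be told apart, no test was possible, and each interval given here is at 95% and covers counting error alone.

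There were 2584 barcodes with 12549471 UMIs for KO and 742 barcodes with 3414944 UMIs for DKO, with 1 barcode sequence in common. After the filter, 2443 KO and 730 DKO cells were grouped into classes by marker genes, and a difference from the study's own cell names may come from this regrouping. Though the label is colon macrophage, monocyte/macrophage-like cells were 62.1% of KO cells and 43.2% of DKO cells, and the rest included B cell-like, T cell-like, dendritic cell-like and neutrophil-like cells. The B cell-like, T cell-like and neutrophil-like levels given here are thus from cells that the gate of the study's methods was meant to leave out. Cers2 had 443 UMIs in KO monocyte/macrophage-like cells and 0 in those of DKO, with 2 UMIs over all kept DKO cells. Il10rb had 40 UMIs in KO and 8 in DKO monocyte/macrophage-like cells, and with no intact library these cannot be set against a normal level.

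Cells make saturated fatty acids with fatty acid synthase, mainly palmitate, from acetyl-CoA and malonyl-CoA. Stearoyl-CoA desaturases put a first double bond into such chains and so make the mono-unsaturated acids, oleate among them, while the FADS desaturases act on polyunsaturated chains. ELOVL enzymes lengthen acyl chains by condensing them with malonyl-CoA, each with its own range of substrates, and SREBP-1, the product of Srebf1, switches on many of these genes.

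Scd1 and Scd2 are neighbouring paralogs on chromosome 19, and the results turn on how their levels were divided between cell classes. Their coding sequences, from the GENCODE annotation of GRCm38, were 1068 and 1077 bases long and identical at 965 of 1068 aligned bases, or 90.4%. The last 120 coding bases of each, all in coding exon 6 of 6, are shown to let the paralogs be compared, 5′ to 3′ on the coding strand, with capitals at the 15 bases that differ. They lie at chr19:44397919-44398038 (minus strand) for Scd1 and chr19:44303081-44303200 (plus strand) for Scd2.
Scd1: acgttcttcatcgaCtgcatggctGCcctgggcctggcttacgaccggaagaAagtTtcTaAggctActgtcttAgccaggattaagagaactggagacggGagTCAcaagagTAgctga
Scd2: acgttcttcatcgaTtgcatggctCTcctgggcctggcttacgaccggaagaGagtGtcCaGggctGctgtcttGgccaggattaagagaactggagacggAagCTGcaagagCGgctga

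The libraries read the 3′ ends of transcripts, and there the paralogs could be told apart. The whole transcripts of Scd1 and Scd2 had 252 stretches of 31 bases in common, but the last 500 bases of either transcript had 0 in common with the other. The same count was 0 for each of the 8 desaturase and elongase genes against the other family members searched. Elovl1 overlaps Cdc20 on the other strand and Srebf1 overlaps Rai1, and the sources used here do not state whether counting used the strand. In monocyte/macrophage-like cells Cdc20 had 4 UMIs in KO and 1 in DKO beside 363 and 101 of Elovl1.

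Scd1, which encodes the main stearoyl-CoA desaturase of liver and fat, was almost wholly a B cell transcript in these libraries. B cell-like cells held 150 of 172 Scd1 UMIs in KO (87.2%) and 118 of 125 in DKO (94.4%). As counts per 1000000 UMIs of the class (CPM), the KO level was 222 (188 to 261) and the DKO level 255 (211 to 306). Monocyte/macrophage-like cells, with far more cells, had 4 Scd1 UMIs in KO, or 0.459 CPM (0.125 to 1.18), and 5 in DKO, or 2.83 CPM (0.92 to 6.61). Per UMI of all genes, the B cell-like level was thus 432 times that of monocyte/macrophage-like cells in KO (185 to 1799) and 82.3 times in DKO (37.5 to 283).

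The order of the other classes rested on few counts. T cell-like cells had 1 Scd1 UMI in KO and 0 in DKO, which allows up to 6.98 CPM in the latter, and neutrophil-like cells had 0 in both. Dendritic cell-like cells had 13 UMIs in KO (13.6 CPM) and 1 in DKO (1.77 CPM). The B cell gene Cd79a was at 1.63% of its B cell-like level in KO dendritic cell-like cells and at 0.118% in DKO. Scd1 was at 6.14% and 0.692% there, and Ms4a1, another B cell gene, had 0 UMIs in both. In KO monocyte/macrophage-like cells the shares were 0.292% for Cd79a, 0.201% for Ms4a1 and 0.207% for Scd1. In those of DKO they were 0.113%, 0.203% and 1.11%. The part of free B cell RNA in the Scd1 counts was not tested.

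Scd1 was spread over many B cell-like cells and not the product of a few. A UMI was found in 99 of 229 cells in KO (43.2%) and in 70 of 166 in DKO (42.2%), and no cell had more than 5. In monocyte/macrophage-like cells, the shares were 0.264% and 1.27%, although these cells were deeper, with median totals of 5507 (KO) and 5436 (DKO) against 2430 and 2516. With each cell thinned to 1500 UMIs, which left out 18 KO and 5 DKO cells, a Scd1 UMI was left in 28.0% of B cell-like cells in KO (22.0 to 34.5) and in 32.9% of those in DKO (25.7 to 40.8).

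**Figure D1:**
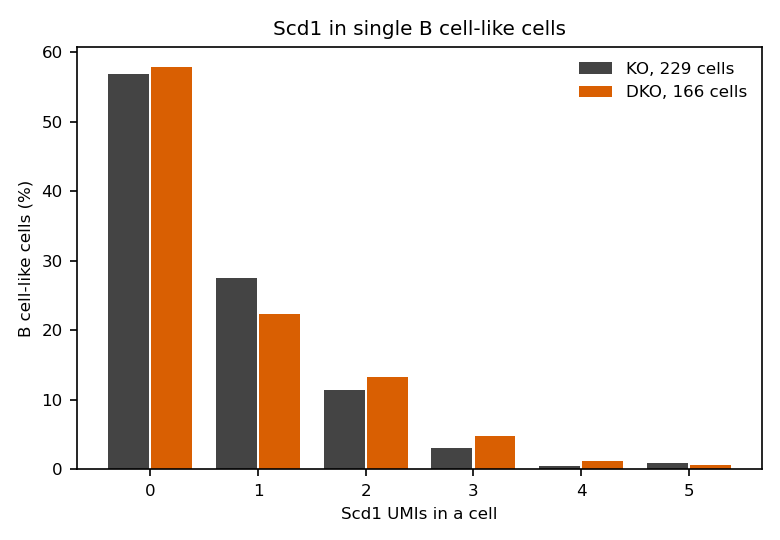
Share of B cell-like cells (y axis, percent) with each number of Scd1 UMIs (x axis), in the KO library (grey, 229 cells) and the DKO library (orange, 166 cells). In both libraries 0 is the most frequent value, with 130 KO and 96 DKO cells, and 1 UMI is the next, with 63 and 37.

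Cells with and without a Scd1 UMI had B cell genes at similar depth. Their median total was 2438 against 2428 UMIs in KO and 2598 against 2456 in DKO. KO held 4 cells with at least 10 UMIs of the plasma cell gene Jchain, all without Scd1, and they are left out of the KO levels that follow. Cd79a, a chain of the B cell receptor complex, was at 1363 CPM in KO cells with Scd1 and 1286 CPM in those without, and at 1442 and 1541 CPM in DKO. Ebf1, a transcription factor of the B cell lineage, was at 2290 against 2133 CPM in KO (1685 CPM with the 4 cells) and at 2682 against 2101 CPM in DKO. Lyz2, a gene of myeloid cells, was at most 15.5 CPM in any of these sets of cells.

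Scd1 did not differ between the genotypes beyond counting error in B cell-like cells, with a log2 ratio of DKO over KO of 0.20 (-0.16 to 0.56). The 4 Jchain cells of KO had 0 Scd1 UMIs among 86899 of all genes, and DKO held 0 such cells. Without them, an alternative chosen after the data were seen, Scd1 was at 254.9 CPM in KO and 255.3 CPM in DKO.

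Among genes with at least 200 UMIs, the pattern of Scd1 over 13 sums of a class in a library was most like those of Ebf1 (Pearson r 0.99), Fcer2a (0.98) and Ly6d (0.98), on log2(CPM + 10). The sums come from 2 libraries and differ in depth, and these values are a description. The closest genes were Xpnpep1, Dnlz and Ccdc28b for Scd2 (0.85 to 0.86), Milr1, Fam129a and Ap3s1 for Elovl1 (0.73 to 0.74), Stat5a, Golga7 and Dnajc12 for Elovl5 (0.84), and Ube4b, Eif4enif1 and Thap11 for Srebf1 (0.94 to 0.97).

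Scd2, the stearoyl-CoA desaturase of many tissues outside the liver, had another distribution. Monocyte/macrophage-like cells held 90 of its 162 UMIs in KO and 31 of 43 in DKO. Dendritic cell-like cells had the highest level in KO, 32.5 CPM (22.1 to 46.1), followed by B cell-like cells at 26.7 CPM (15.8 to 42.1), which did not differ from it beyond counting error. Without the KO cells rich in Jchain the B cell-like level was 22.1 CPM, from 13 UMIs. The KO monocyte/macrophage-like level was 10.3 CPM (8.30 to 12.7), so that dendritic cell-like cells were 3.18 times higher (2.02 to 4.78).

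The order was another one in DKO. There monocyte/macrophage-like cells were at 17.6 CPM (11.9 to 24.9), dendritic cell-like cells at 12.4 (4.97 to 25.5), T cell-like cells at 4.65 (0.563 to 16.8) and B cell-like cells at 2.16, from 1 UMI. The intervals of all neighbours overlapped, and neutrophil-like cells had 0 UMIs in both libraries. Scd2 and Scd1 were found together in 6 of the 13 KO B cell-like cells with Scd2 and in 5 of the 21 KO dendritic cell-like cells with Scd2. In monocyte/macrophage-like cells both were found in 0 of 81 cells with Scd2 in KO and in 2 of 23 in DKO.

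**Figure D2:**
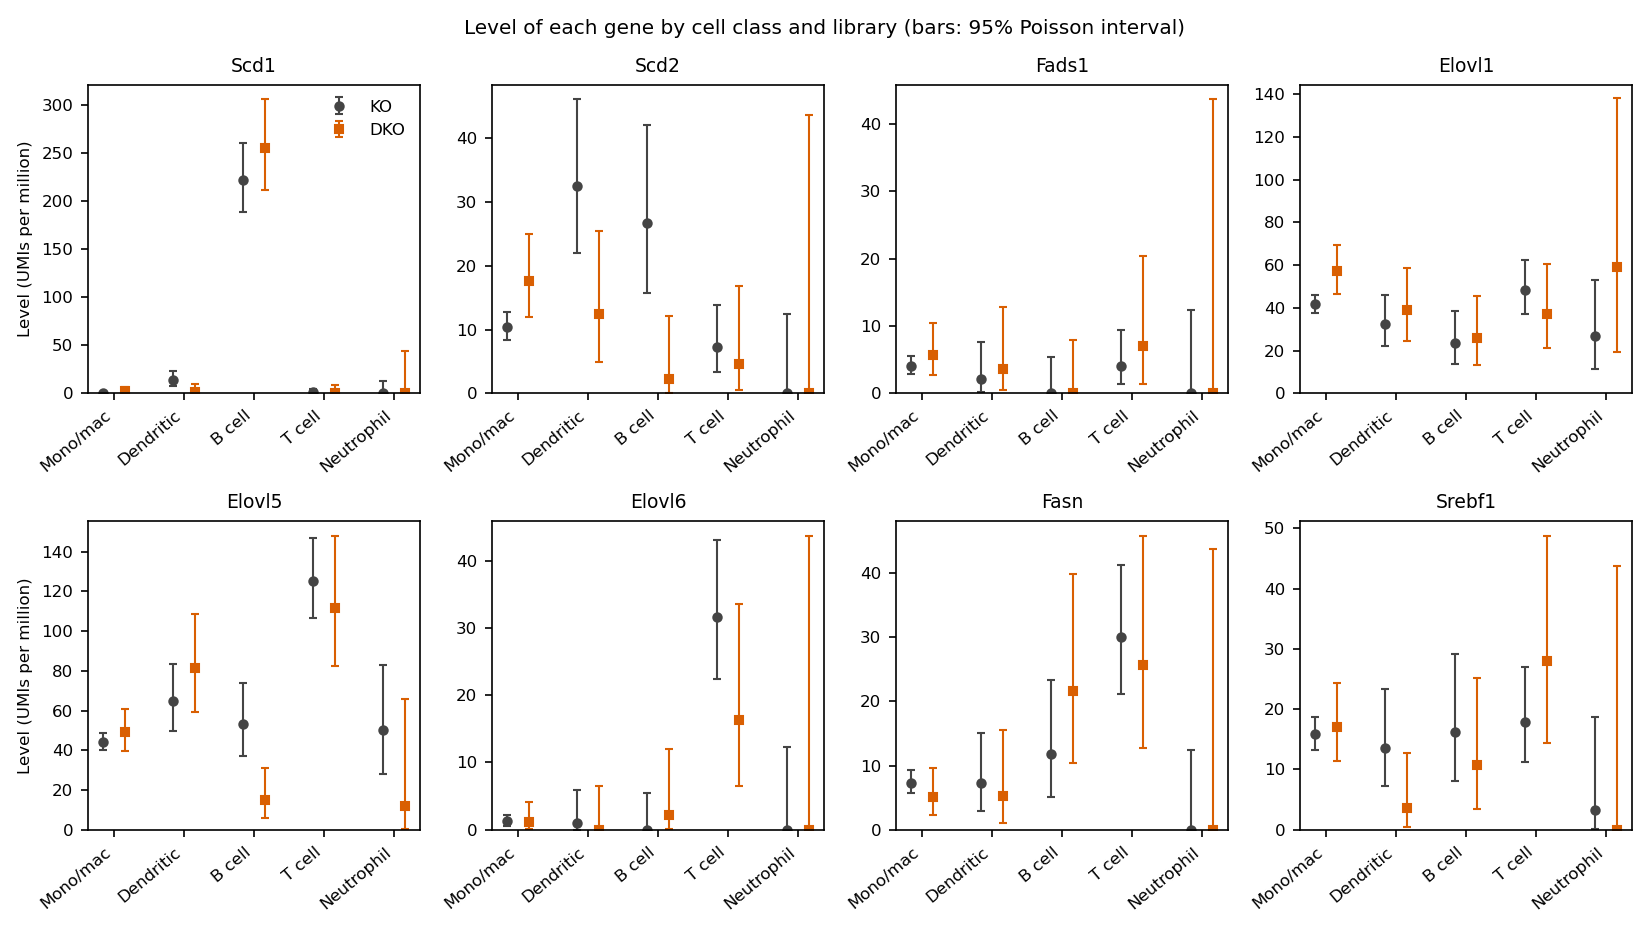
Level of 8 of the genes (y axis, UMIs per 1000000 of the class total, each panel with its own scale) in 5 cell classes (x axis) of the KO (grey circles) and DKO (orange squares) libraries, with 95% Poisson intervals. Scd1 stands at 222 and 255 CPM in B cell-like cells and near 0 in most other classes. Elovl5, Elovl6 and Fasn are highest by value in T cell-like cells.

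The desaturases of polyunsaturated chains, Fads1 and Fads2, were sparse. Fads1, the delta-5 desaturase, had 35 UMIs in KO monocyte/macrophage-like cells (4.02 CPM) and 10 in those of DKO (5.67 CPM). T cell-like cells had like levels, 4.05 and 6.98 CPM from 5 and 3 UMIs, and B cell-like and neutrophil-like cells had 0 in both libraries. Fads2, the delta-6 desaturase, had 1 UMI in all kept cells, in a KO cell of the epithelial cell-like cluster, among those that grouped with T cell-like cells under other settings. Its 0 UMIs in monocyte/macrophage-like cells allow up to 0.344 CPM in KO and 1.70 CPM in DKO.

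Elovl1, which lengthens saturated and mono-unsaturated very long chains and so supplies the substrates of CerS2, was found in all 5 large classes of both libraries, as was Elovl5. In KO it was at 48.5 CPM in T cell-like, 41.7 in monocyte/macrophage-like, 32.5 in dendritic cell-like, 26.8 in neutrophil-like and 23.7 in B cell-like cells, and no neighbours in this order differed beyond their intervals. B cell-like cells were below monocyte/macrophage-like cells in both libraries, with log2 ratios of -0.77 (-1.64 to -0.09) in KO and -1.09 (-2.14 to -0.27) in DKO.

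Elovl5, an elongase of polyunsaturated chains, had the most UMIs of the 10 genes, 675 in KO and 203 in DKO. Of the 5 large classes T cell-like cells were highest, with a KO level of 125 CPM (106 to 147) and a DKO level of 112 CPM (82.3 to 148), the latter overlapping the dendritic cell-like interval. They were 2.84 times above monocyte/macrophage-like cells in KO (2.33 to 3.42) and 2.28 times in DKO (1.56 to 3.26). With 15 components, or with a stricter or no cell filter, 2 things changed in the T cell-like class: cluster 4 stayed unnamed, and 20 to 23 deep KO cells with genes of cell division, at 40.1 to 44.7 CPM of Elovl5, joined it. The KO log2 ratio was then 0.81 to 0.89. Dendritic cell-like cells came next, at 65.0 and 81.3 CPM, and were also above monocyte/macrophage-like cells, at 44.3 and 49.3 CPM, with log2 ratios of 0.56 (0.14 to 0.94) and 0.73 (0.17 to 1.25). With cells gated one by one on markers in place of clusters, the DKO ratio turned to -1.47, from 19 dendritic cell-like cells.

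Fasn, which makes palmitate, and Elovl6, which lengthens it to stearate, were both highest by value in T cell-like cells among the 5 large classes. The interval of the next class, B cell-like cells, overlapped theirs for Fasn in both libraries and for Elovl6 in DKO. Elovl6 in T cell-like cells had 31.6 CPM for KO (22.4 to 43.1) and 16.3 CPM for DKO (6.55 to 33.6), against 1.26 and 1.13 CPM in monocyte/macrophage-like cells. This is 24.2 times higher in KO (12.6 to 54.1), and 12.3 times in DKO (2.74 to 142), where the counts were 7 and 2. Fasn was at 29.9 CPM (21.1 to 41.3) and 25.6 CPM (12.8 to 45.8) in T cell-like cells, or 4.10 times (2.64 to 6.21) and 4.97 times (1.89 to 13.7) the monocyte/macrophage-like level. Fasn in B cell-like cells, at 11.8 and 21.6 CPM, was 1.70 times (0.668 to 3.37) and 4.22 times (1.55 to 11.8) that level. In the small epithelial cell-like cluster of KO, Fasn was at 33.9 CPM (19.0 to 56.0), in a mixture of cells described with Elovl7.

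Both T cell-like clusters carried these genes. In KO, Elovl6 was at 29.8 CPM in cluster 4, led by Ikzf2, Xcl1 and Nkg7, and at 33.4 CPM in cluster 6, led by Tnfrsf4, Icos and Ctla4. The name of cluster 4 is uncertain: its 10 leading genes held 2 listed T cell markers (Trbc2, Cd3d) and 2 listed markers of NK cells and innate lymphoid cells (Xcl1, Nkg7), and under 3 alternatives the latter outnumbered the former and it was left unnamed. Fasn was at 34.5 and 25.1 CPM in the same clusters, and Elovl5 at 147 CPM (119 to 180) and 102 CPM (78.0 to 131). In DKO the Elovl5 order was the reverse by value, 94.5 CPM (61.7 to 138) in cluster 4 and 142 CPM (89.2 to 215) in cluster 6. The intervals of the clusters overlapped in each library. Free RNA from macrophages was low in these cells: C1qa was at 1.44% of its monocyte/macrophage-like level in KO T cell-like cells and at 0% in DKO, Lyz2 at 2.67% and 0.0935%, C1qb at 0.960% and 0.254%, and Apoe at 3.77% and 0.0989%. In B cell-like cells Lyz2, C1qa and C1qb were at most 0.878% in either library, and Apoe, a lipid carrier, at 18.0% in KO and 15.1% in DKO.

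Srebf1 showed no class apart from its neighbours in the order of levels. In KO it ranged from 13.6 CPM in dendritic cell-like to 17.8 CPM in T cell-like cells among the 4 classes other than neutrophil-like cells, which had 1 UMI. In DKO it was at 27.9 CPM (14.4 to 48.8) in T cell-like, 17.0 in monocyte/macrophage-like, 10.8 in B cell-like and 3.53 in dendritic cell-like cells, and intervals of neighbours overlapped. Rai1, on the other strand, had 74 and 12 UMIs in monocyte/macrophage-like cells beside 138 and 30 of Srebf1.

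Elovl7, an elongase of saturated long chains, had 9 UMIs in kept KO cells and 0 in DKO. Of the 9, 7 were in the epithelial cell-like cluster, which held 33 KO and 8 DKO cells. That cluster was a mixture: with no cell filter, 20 of its KO and 6 of its DKO cells fell into a T cell-like cluster of dividing cells, and 13 and 2 stayed epithelial cell-like. The 13 KO cells had 166 UMIs of the epithelial gene Epcam, 0 of the T cell gene Cd3e and all 7 of Elovl7, while the 20 had 3, 74 and 0. Fasn had 8 and 7 UMIs in them. With 15 components the 13 KO cells fell into the monocyte/macrophage-like class instead. With the stricter cell filter 11 of them did, with 154 Epcam and 6 Elovl7 UMIs, so that class held epithelial cells under both alternatives. Of the other Elovl7 UMIs of KO, 1 was in a monocyte/macrophage-like cell and 1 in the unnamed cluster 9.

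The genotypes were then compared within monocyte/macrophage-like cells, where 6 of the 10 genes had at least 20 UMIs over both libraries. Scd2 was the 1 gene past 1.5-fold higher: its 90 KO and 31 DKO UMIs, or 10.3 and 17.6 CPM, gave a ratio of 1.72 (log2 0.78, 0.13 to 1.37). No gene was past 1.5-fold lower. Over all 9753 genes with at least 20 UMIs in these cells, 12.4% were past 1.5-fold higher in DKO and 8.83% lower, so 1 gene of 6 is near the background. Since 58.5% of all calls were higher with totals as the scale and 43.5% with TMM scaling, which shifts every log2 ratio of this class by -0.12, the background depends on the scale, and Scd2 was at 0.66 (0.01 to 1.25) under TMM.

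Elovl1 was higher in DKO by less than that fold, with 363 UMIs in KO and 101 in DKO, or 41.7 and 57.2 CPM (log2 0.46, 0.13 to 0.78). Both this and the Scd2 interval reached 0 when the cell with the most UMIs of the gene was left out of each library. For Elovl1 a single DKO cell held 9 of the 101 UMIs, and the ratio without such cells was 0.34 (-0.01 to 0.67). For Scd2 the most in a cell was 3, and the ratio without was 0.67 (-0.01 to 1.28). The share of cells with an Elovl1 UMI was 20.3% in both libraries. After thinning it was 6.60% in KO (5.38 to 7.99) and 8.05% in DKO (5.23 to 11.7). For Scd2 the thinned shares were 1.16% (0.675 to 1.85) and 1.68% (0.547 to 3.87), so the intervals overlapped for both genes.

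The other 4 measured genes did not differ beyond counting error. Fads1 had a log2 ratio of 0.55 (-0.68 to 1.54), Elovl5 of 0.16 (-0.20 to 0.49), Srebf1 of 0.12 (-0.52 to 0.68) and Fasn of -0.46 (-1.72 to 0.49). The median of the 6 was 0.31, against 0.09 over all genes of the class. Scd1, Elovl6, Elovl7 and Fads2 had 9, 13, 1 and 0 UMIs over both libraries in these cells.

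**Figure D3:**
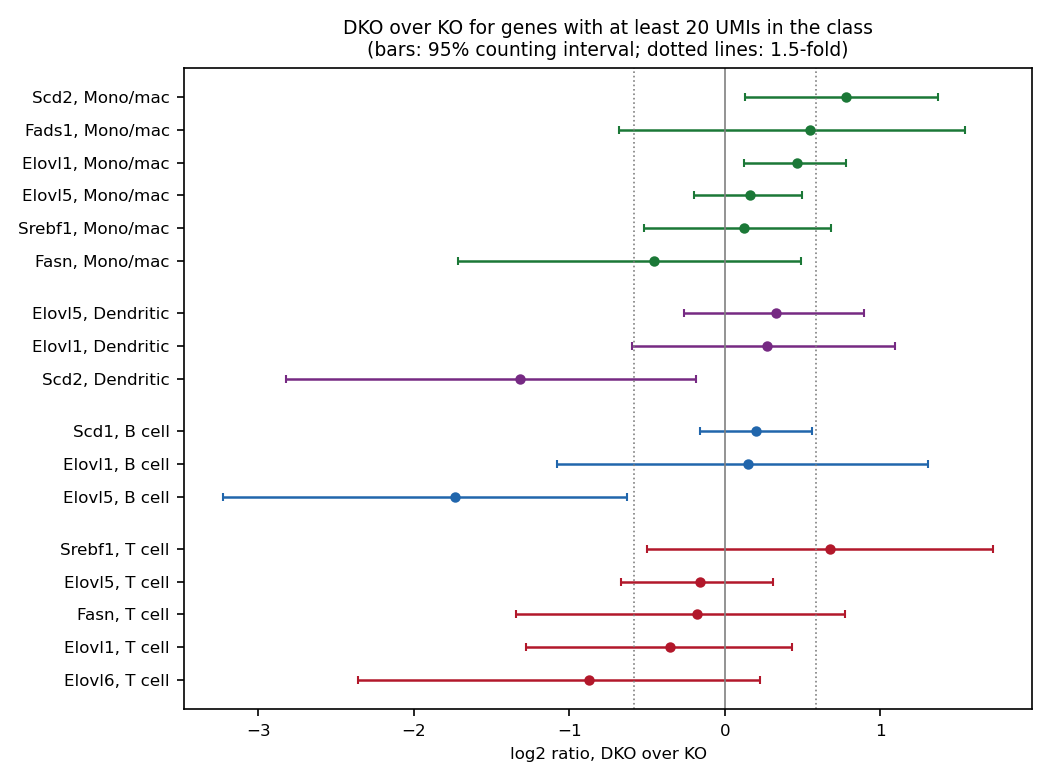
log2 ratio of DKO over KO (x axis) for each gene with at least 20 UMIs in a class (rows, coloured by class), with 95% counting intervals and dotted lines at 1.5-fold. The intervals of Scd2 and Elovl1 in monocyte/macrophage-like cells lie above 0, and those of Scd2 in dendritic cell-like cells and Elovl5 in B cell-like cells lie below 0.

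Other classes had fewer countable genes. In dendritic cell-like cells Scd2 was lower in DKO, with 31 KO and 7 DKO UMIs, or 32.5 and 12.4 CPM (log2 -1.32, -2.82 to -0.18), and was the 1 gene of 3 past 1.5-fold. With cells gated one by one on markers, which left 34 KO and 19 DKO cells, the ratio was -3.26. The 19 DKO cells were under the minimum of 20 cells per class and library, and no interval is given for this ratio. The background there was 12.1% higher and 15.6% lower. Elovl5 (0.33) and Elovl1 (0.27) in these cells had intervals that included 0.

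In B cell-like cells Elovl5 was lower in DKO, with 36 KO and 7 DKO UMIs, or 53.3 and 15.1 CPM (log2 -1.74, -3.23 to -0.63). A UMI of it was found in 13.5% of the KO cells and 4.22% of the DKO cells, and after thinning in 8.53% (5.13 to 13.1) and 0.621% (0.0157 to 3.41). It was the 1 gene of 3 past the fold in that class, where 14.5% of 5220 genes were higher and 8.87% lower, or 9.77% and 12.8% under TMM scaling. Scd1 and Elovl1, the other 2, had intervals that included 0. Scd2 was under the minimum of 20, with 18 KO and 1 DKO UMIs (26.7 and 2.16 CPM). Of the KO UMIs, 13 were outside the cells rich in Jchain (22.1 CPM).

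In T cell-like cells no interval of the 5 measured genes left out 0. Srebf1 was past 1.5-fold higher, from 22 and 12 UMIs (log2 0.68, -0.50 to 1.73), and Elovl6 past it lower, from 39 and 7 UMIs (-0.87, -2.36 to 0.22). The background was 10.2% higher and 18.2% lower. Neutrophil-like cells, with 48 cells and 84384 UMIs in DKO, had no gene of the 10 with 20 UMIs.

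Monocyte/macrophage-like cells were clustered again with the 10 genes left out of the clustering, and gave 5 subclusters. Subcluster 0 was led by Dnase1l3 and Acp5, subcluster 1 by genes that include Vcan and Ly6c2, subcluster 2 by Ccl7 and Mrc1, subcluster 3 by Cxcl3, Arg1 and Nos2, and subcluster 4 by Cd300e and Ace. Subcluster 3 held 183 cells of KO and 1 of DKO. With 1 library per genotype, a state of cells and a feature of the KO library cannot be told apart there. The comparison of genotypes over the whole class thus set unlike mixtures side by side.

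Scd2 differed between them beyond counting error. In KO it was lowest in the Ly6c2 subcluster 1, with 5 UMIs in 435 cells (2.32 CPM, 0.754 to 5.42). It was at 7.37 CPM (3.81 to 12.9) in subcluster 2, at 12.01 CPM (8.69 to 16.2) in subcluster 0 and at 23.7 CPM (15.9 to 34.1) in the Arg1 subcluster 3. The log2 ratio of subcluster 3 over subcluster 1 was 3.24 (1.97 to 5.08), and that of subcluster 2, which had the highest C1qa, over subcluster 1 was 1.59 (0.06 to 3.52).

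Within subclusters, DKO and KO could be compared where both had cells. In subcluster 0, Scd2 was at 12.01 CPM in KO (43 UMIs, 534 cells) and 34.6 CPM in DKO (18 UMIs, 71 cells), a log2 ratio of 1.55 (0.64 to 2.35). In subcluster 2 it was at 7.37 and 14.2 CPM (0.96, -0.42 to 2.29), and in subcluster 1 it had 5 UMIs in KO and 0 in DKO. Without subcluster 3 the ratio over the class was 1.08 (0.39 to 1.72). With KO weights for the 4 subclusters that had at least 20 cells in each library it was 1.30.

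The elongases followed other orders. Elovl5 was highest in KO in the small Cd300e subcluster 4 (113 CPM, 63.2 to 186) and in subcluster 2 (66.9 CPM, 55.0 to 80.8), and lowest in the Arg1 subcluster 3 (19.6 CPM, 12.6 to 29.2). Elovl1 was also lowest by value in subclusters 4 and 3, at 22.6 and 28.7 CPM, and at 41.1 to 48.3 CPM in the others. Subcluster 3 against subcluster 1 gave log2 ratios of -1.04 (-1.77 to -0.39) for Elovl5 and -0.74 (-1.35 to -0.19) for Elovl1, opposite in sign to that of Scd2. In DKO, Elovl1 in subcluster 0 was at 73.0 CPM against 43.0 CPM in KO (0.78, 0.21 to 1.28). The DKO level there came from 38 UMIs in 17 of 71 cells, and the KO level from 154 UMIs in 119 of 534 cells.

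Srebf1 was at 60.2 CPM (26.0 to 119) in KO subcluster 4, from 8 UMIs, and at 9.83 to 22.1 CPM in the other KO subclusters. Fasn was in KO at most 10.9 CPM, in subcluster 0, and Fads1 had 22 of its 35 KO UMIs there and 1 in subcluster 1. In DKO, 9 of 10 Fads1 UMIs were in subcluster 2.

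**Figure D4:**
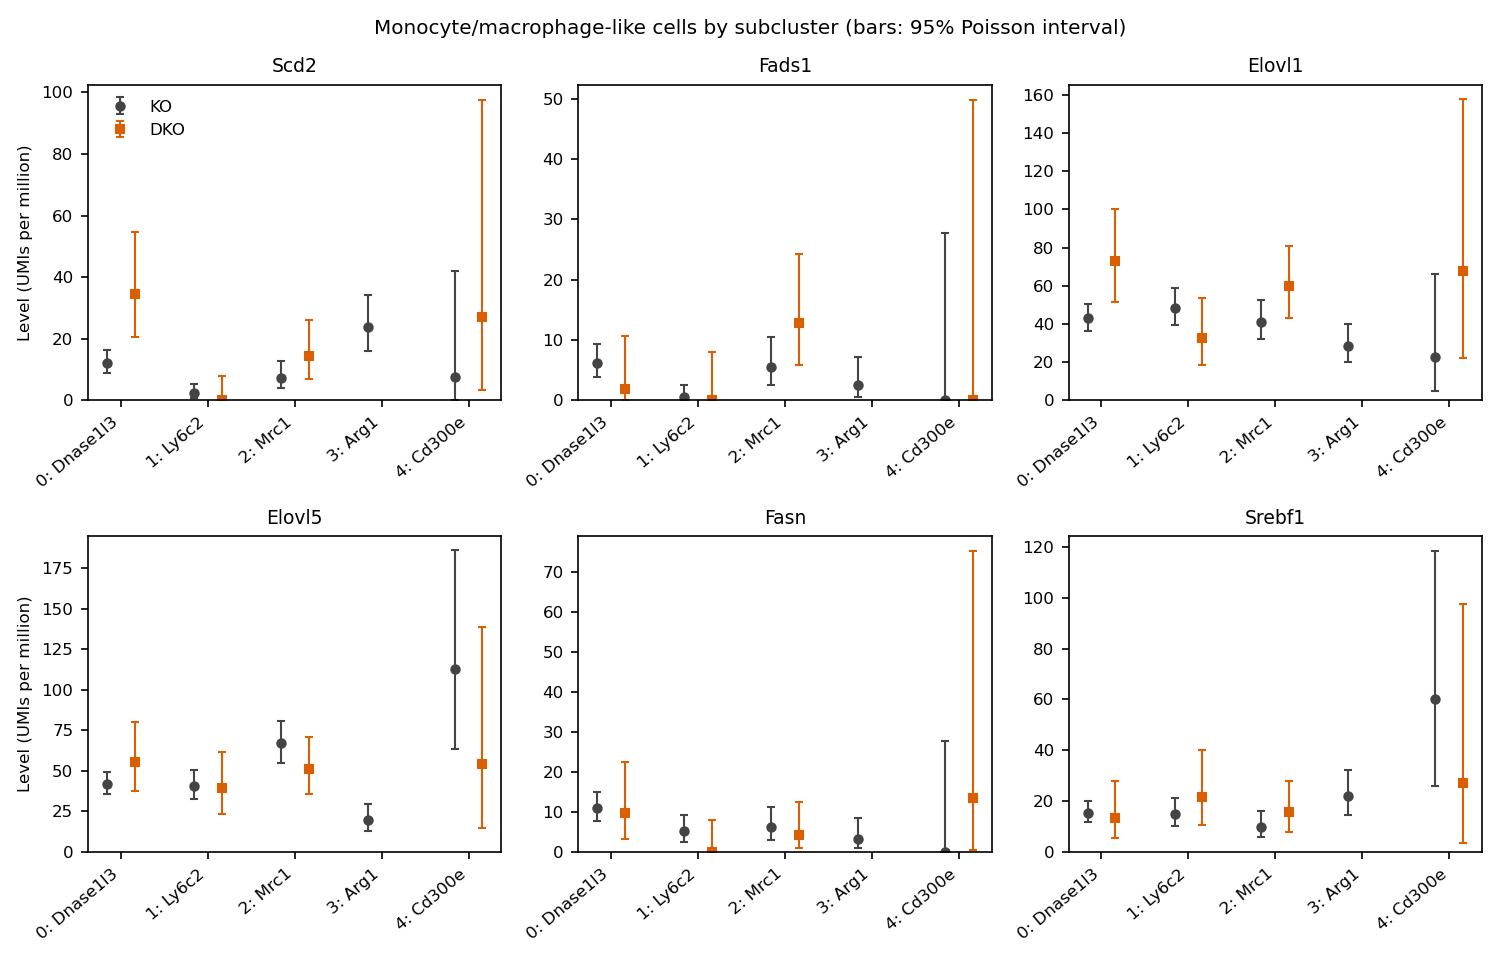
Level of 6 of the genes (y axis, UMIs per 1000000, each panel with its own scale) in 5 subclusters of monocyte/macrophage-like cells (x axis, named by number and a leading gene), KO in grey and DKO in orange, with 95% Poisson intervals. The 1 DKO cell of subcluster 3 is not drawn, and in KO Scd2 is highest in subcluster 3 (23.7 CPM) where Elovl5 is lowest (19.6 CPM).

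The genes around these enzymes were looked at in 6 lists, in monocyte/macrophage-like cells. Of the other desaturases and elongases, 1 of 9 genes had 20 UMIs: Degs1, the dihydroceramide desaturase, at 73.0 CPM in KO and 81.0 in DKO (log2 0.16, -0.12 to 0.41). Among the genes that supply acetyl-CoA, malonyl-CoA and NADPH, 1 of 7 was past 1.5-fold, and it was lower. Of the 10 measured partners of the elongation cycle and electron donors of desaturases 0 were past that fold, and of the 11 measured genes that control SREBP and LXR also 0. The list of acyl-CoA and fatty acid handling had 5 of 17 past it lower and 0 higher, and cholesterol synthesis had 2 of 18 lower and 1 higher, beside the 8.83% lower and 12.4% higher over all genes.

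The genes past the fold with intervals away from 0 were all lower in DKO. Acss2, which makes acetyl-CoA from acetate, had 52 KO and 2 DKO UMIs (5.97 and 1.13 CPM, log2 -2.09, -5.48 to -0.47). Sqle, the squalene epoxidase of cholesterol synthesis, had 57 and 3 (-1.73, -4.26 to -0.32). Fabp4, a fatty acid binding protein, had 71 and 4 (-1.69, -3.76 to -0.43).

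The other 3 were also of fatty acid handling. Slc27a1, a fatty acid transporter, was at 8.49 and 3.40 CPM (-1.21, -2.81 to -0.13), and Acsl1, an acyl-CoA synthetase of long chains, at 35.6 and 19.3 CPM (-0.87, -1.44 to -0.37). Fabp5, the more abundant binding protein, was at 307 and 203 CPM (-0.59, -0.76 to -0.44). Without the Arg1 subcluster the interval of Slc27a1 included 0 (-0.98, -2.59 to 0.14), and those of the other 5 genes did not. Hsd17b12, the ketoacyl reductase that works with the elongases, was named after its values were seen: it was at 69.4 CPM in KO and 96.9 CPM in DKO (0.48, 0.23 to 0.73). It was under the fold, and other such list genes with intervals away from 0 went both ways. Acsl4 (-0.45), Dgat1 (-0.44) and Dbi (-0.40) were lower in DKO, and Ebp (0.42) and Plin2 (0.18) were higher.

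The list medians were -0.11 for supply, -0.01 for elongation partners, -0.08 for SREBP and LXR control, -0.29 for fatty acid handling and -0.04 for cholesterol synthesis. The median of the handling list was 0.03 without the Arg1 subcluster and that of the supply list 0.08, so the sign of both rested on that subcluster, which was nearly all KO. Srebf2 and Insig1, which regulate the cholesterol genes, differed by a log2 ratio of -0.03 (-0.36 to 0.28) and 0.04 (-0.16 to 0.23).

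**Figure D5:**
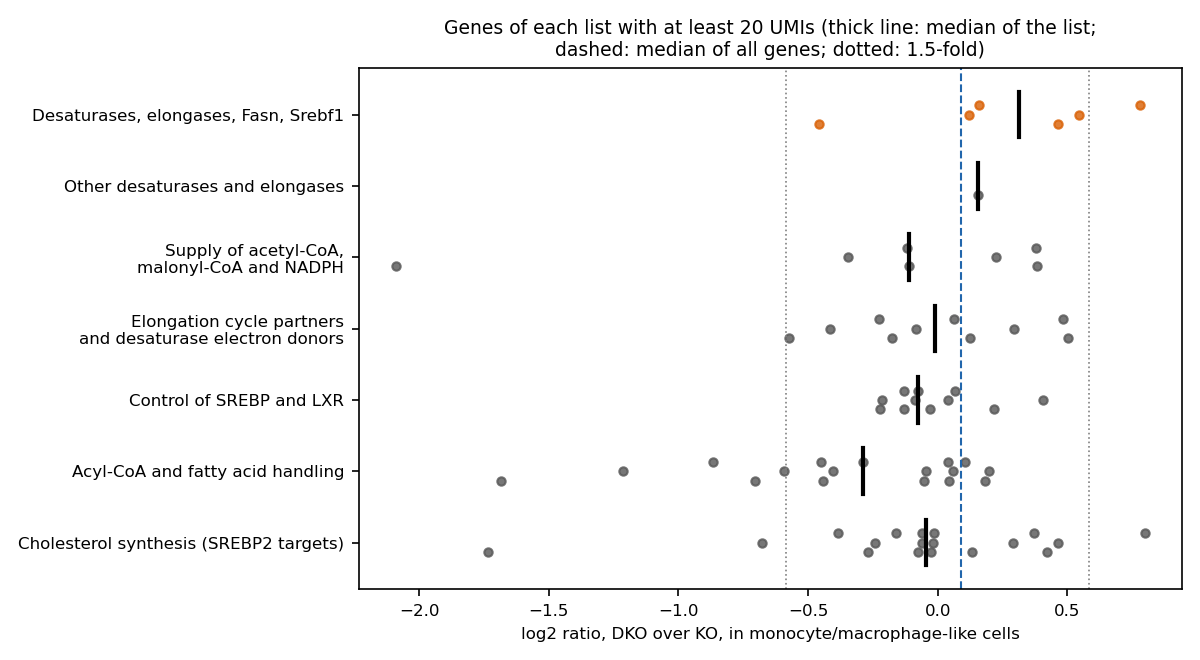
log2 ratio of DKO over KO in monocyte/macrophage-like cells (x axis) for each gene with at least 20 UMIs, by list (rows). Thick lines are list medians, the dashed line is the median of all genes (0.09) and dotted lines mark 1.5-fold, and the 6 desaturase, elongase and synthesis genes at the top have a median of 0.31.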

How the data were processed

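The authors deposited raw UMI counts per gene and barcode, made with Cell Ranger 6.0.1 on mm10 from 3′ libraries. Their own analysis used Seurat 4.3.0. Members, lists and markers were chosen with earlier results of these data known. The cell filter followed the study (300 to 5000 genes, mitochondrial share up to 10%), and both libraries were clustered together (Seurat 5.3.0, 2000 variable genes, 30 components, 20 neighbours, resolution 0.3), with the members, list genes and Cers2 left out of the variable genes. Clusters were named from at least 3 markers, and cluster 9, of low UMI counts, stayed unnamed. Scrublet called 6 KO and 2 DKO barcodes, too few to have worked, so removing the highest 5% of scores was an alternative.

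UMIs were summed per class and library and given as counts per 1000000 with exact Poisson intervals. Ratios had 0.5 counts added and exact conditional intervals, shares exact Clopper-Pearson intervals, all at 95% and for counting error only, and a count of 0 allows up to 3 counts. Past the fold means over 1.5-fold in genes with at least 20 UMIs. No test was run, unlike the study, which tested imputed values over cells. Named list genes had at least 20 UMIs, were past 1.5-fold and had intervals without 0, up to 12. For genes with at least 200 UMIs, the 3 genes of highest Pearson r over class sums were named. Ratios and intervals were tested on simulated data. Alternatives changed the cell filter, clustering, gating, doublets, scaling (edgeR 4.0.16, TMM), weighting, single cells, added counts and minimum UMIs.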

Additional observations from a re-analysis of the deposited data

Results flagged for a closer look

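Scd2 was flagged because its DKO over KO ratio pointed opposite ways in 2 classes, with both counting intervals away from 0: 0.78 on the log2 scale in monocyte/macrophage-like cells and -1.32 in dendritic cell-like cells. Without the cell with the most Scd2 UMIs in each library, the ratios were 0.67 (-0.01 to 1.28) and -1.44 (-3.29 to -0.15). Under TMM scaling they were 0.66 (0.01 to 1.25) and -1.30 (-2.81 to -0.17). The dendritic cell-like ratio rested on 7 DKO UMIs in 5 cells. After thinning, Scd2 was left in 4 of 101 KO and 1 of 53 DKO dendritic cell-like cells. There was 1 library per genotype, and the difference between the classes was not tested.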

How the results depend on the processing

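Of 512 values recomputed under an alternative, 495 stayed inside the counting interval of the reported value or, for counts of genes, within 1.5 times of it. The 495 include values that could not move. With resolution 0.8 the large classes were the same as reported, and so were the values over them. The T cell-like ratios of DKO over KO were also unchanged with the 10 genes among the variable genes. The number of the 10 genes past 1.5-fold higher in monocyte/macrophage-like cells, 1 as reported, was 2 with these genes among the variable genes, 2 with the highest doublet scores removed, 2 with each cell weighing the same, 2 with 1 count added to each sum, and 3 with no minimum of UMIs. Where it was 2, the added gene was Fads1, 1.46-fold as reported, from 35 KO and 10 DKO UMIs. Where it was 3, Scd1 (4 KO and 5 DKO UMIs) and Elovl7 (1 and 0 UMIs) stood beside Scd2. Elovl7 passed the fold only through the 0.5 counts added to sums of unlike depth, and is not a gene seen in DKO. The Elovl5 ratio of dendritic cell-like over monocyte/macrophage-like cells in DKO turned to -1.47 with a marker gate on each cell. The gate left 19 DKO dendritic cell-like cells, under the minimum of 20 per class and library, and the cause was not tested. In T cell-like cells the Elovl5 ratio of DKO over KO, -0.16 as reported, was 0.79 with the stricter cell filter, 0.83 with none and 1.08 with 15 components, where the T cell-like class held 165, 170 and 150 KO cells in place of 289: cluster 4 stayed unnamed, and dividing cells, 20 of them from the epithelial cell-like cluster, joined the class. Leaving out the cells rich in Jchain was an alternative chosen after seeing the data. With 1 library per genotype no replicate could be left out. No paired analysis was possible because each group had 1 sample. Depth limits Fads2, Elovl7 and Fads1, and everything in neutrophil-like cells.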
